A study of Sus scrofa with 6 samples.

Results

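Antisense circRNAs are circular transcripts whose back-splice junction lies on the strand opposite to an annotated gene. They were taken here as every row of the deposited circRNA table that carries the class antisense, which gave 549 of 9362 circRNAs (5.86%) and 5121 back-spliced reads (2.80% of all). The table comes from mural granulosa cells of nulliparous gilts in the follicular phase of the estrous cycle, scraped from antral follicles that had been graded by appearance as healthy (HA) or atretic (AA). Each of the 3 HA and 3 AA libraries was a pool of follicles with no treatment or genetic change, and in AA follicles the pool also held apoptotic cells floating in the follicular fluid. In such pools a change in the share of a cell type and a change of RNA per cell cannot be told apart, and the p-values measure only the spread between the pools.

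A circRNA forms when a splice donor is joined to an acceptor upstream of it, so that the RNA closes into a ring without free ends. Most circRNAs are cut from the exons of a coding gene and lie in the sense direction. A transcript of the other strand can base-pair with the mRNA it faces, and natural antisense transcripts are known to act on the splicing, stability or translation of their sense partner. Granulosa cells enclose the oocyte, make estradiol under FSH and die by apoptosis when the follicle becomes atretic.

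Values for AA or HA are given in the order of the library numbers. The 6 libraries held between 25838 and 34414 back-spliced reads. AA libraries 2 and 3 and HA library 1 listed 1270 to 1620 circRNAs, while the other 3 listed 2804 to 3465. Every value in the table is 0 or at least 2 reads, so a circRNA listed at 0 may have had a single read. Granulosa markers were abundant. The 8 found of 10 listed summed to 5770, 2383 and 3745 FPKM (fragments per kilobase of transcript, scaled to mapped fragments) in AA. In HA they summed to 4768, 6338 and 10530 FPKM. Of 6 theca markers, the androgen enzyme CYP17A1 stayed between 0 and 1.38 FPKM. STAR, a listed theca marker, was at 1.36, 0.825 and 1.205 FPKM in AA and 0.258, 28.3 and 19.7 FPKM in HA. The rest were present, and the 6 summed to 134, 133 and 115 FPKM in AA and 228, 352 and 333 FPKM in HA. Most of this sum was LHCGR, the LH receptor, which granulosa cells also gain late in follicle growth, at 65.3, 21.3 and 58.9 FPKM in AA and 172, 286 and 250 FPKM in HA. INSL3 ranged from 11.3 to 46.7 FPKM. The contractile genes ACTA2 and TAGLN, which mark theca externa and smooth muscle, ranged from 17.8 to 56.7 FPKM in AA and from 5.22 to 16.6 FPKM in HA. None of the 5 theca markers tested passed limma at an adjusted p of 0.05, nor did any of all genes tested. With p left unadjusted, 2 were higher and 2 lower in AA, where 9.48% and 6.14% of all genes were. The 8 macrophage and leukocyte markers summed to 30.5, 88.5 and 24.7 FPKM in AA and to 12.8, 6.43 and 3.91 FPKM in HA, with CD163 at 0 in all of them. Of the 6 of these markers tested, 0 passed the adjusted threshold, and with p left unadjusted 5 were higher and 0 lower in AA. The 5 endothelial markers found of 6 listed summed to 7.76, 16.55 and 16.82 FPKM in AA and 5.68, 7.36 and 3.61 FPKM in HA. Among the 2 of them tested, 0 passed the adjusted threshold, and with p left unadjusted 1 was higher and 0 lower in AA. The part of all these cells in the results below was not tested.

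Antisense circRNAs were mostly short and mostly found in a single library. Their median length was 492 nt, with quartiles of 245 and 1153 nt and a range from 84 to 97762 nt. In all, 400 of the 549 (72.9%) were shorter than 1000 nt. The length in the table was equal to the genomic span for all 549, whereas this held for 3.65% of the exonic circRNAs, whose lengths leave introns out. The shortest were 84 nt opposite YLPM1, 88 nt opposite MMADHC, a gene of vitamin B12 metabolism, and 97 nt opposite BMP1, the procollagen C-proteinase. The longest were 97762 and 94281 nt across TMEM154 and 89883 nt across VAC14, a scaffold of the phosphoinositide kinase complex.

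Of the 549, 523 (95.3%) were listed in 1 library, 8 in 2, 8 in 3, 5 in 4, 3 in 5 and 2 in all 6. The median was 6 reads over the 6 libraries, 401 (73.0%) had at most 10 reads, and 99 had 2. The 18 found in at least 3 libraries (3.28%) held 1018 reads, or 19.9% of the antisense reads. Only 13 (2.37%) were on the earlier lists of pig circRNAs that the table marks. The strands were near balance, with 271 on plus and 278 on minus.

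Short and long members differed in how often they were found again. A split at 5000 nt, chosen after the lengths were seen, left 461 short circRNAs with a median of 393 nt and 88 long ones with a median of 26237 nt. The values next to the split were 4840 and 5163 nt. Of the short ones, 13 (2.82%) were in 2 or more libraries and 1 was on the earlier lists. Of the long ones, 13 (14.8%) were in 2 or more libraries and 12 were on the earlier lists. The short ones lay inside their gene in 389 of 461 cases (84.4%). The long ones lay inside it in 37 of 88, enclosed it whole in 14 and overlapped it in part in 20. Mitochondrial members were short, with 155 to 255 nt.

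**Figure D1:**
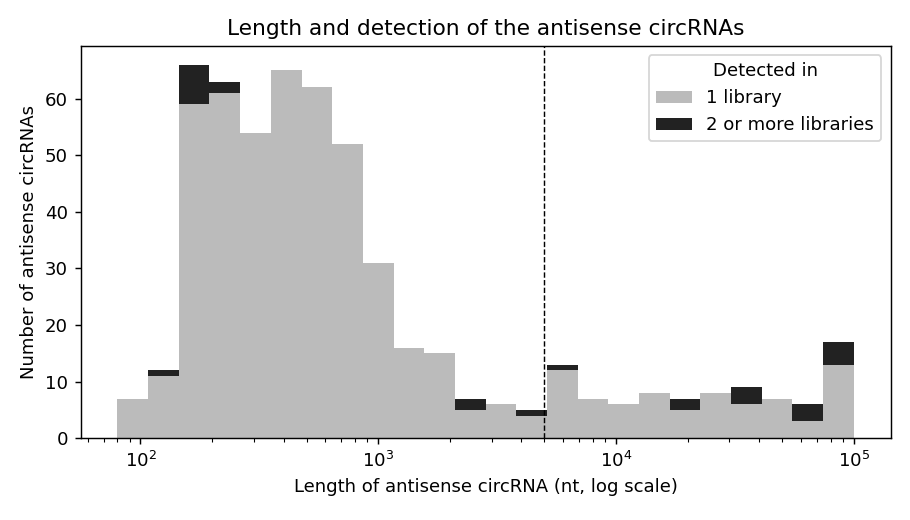
Histogram of the length of the 549 antisense circRNAs in nt on a log axis, stacked by whether a circRNA was listed in 1 library (grey) or in 2 or more (black), with a dashed line at 5000 nt. The 523 grey ones gather around a median of 485 nt, and the 26 black ones fall into a short and a long set with a median of 5832 nt.

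Within a library, antisense circRNAs were less often shared than the other classes. On average 17.0% ± 6.87 (SD, n = 6 libraries) of those listed in a library were also listed in another, against 51.1% ± 5.85 for exonic, 60.2% ± 7.02 for sense overlapping, 29.6% ± 9.75 for intergenic and 24.5% ± 9.83 for intronic circRNAs. The antisense value was lower in 6 of 6 libraries for the first 3 of these comparisons and in 4 of 6 for intronic circRNAs. The share on the earlier lists was 7.5% ± 2.73, lower in 6 of 6 libraries than in each other class, the nearest being intronic circRNAs at 19.1% ± 5.09. The median genomic span differed from that of exonic circRNAs by -7385 nt on average, lower in 6 of 6 libraries, while the predicted lengths differed by 1.58 nt ± 255 (SD). The median number of reads per listed circRNA was 8.00 ± 3.91 for antisense and 8.67 ± 4.50 for exonic circRNAs. In 2-sided exact sign-flip permutation tests over the 6 libraries, 9 of 16 such comparisons reached the smallest p that 6 libraries allow, 0.03125, which became 0.0556 after Benjamini-Hochberg adjustment over the 16, so that 0 passed 0.05. With genomic span in place of predicted length, an alternative added after the data were seen, 10 of the 16 were at that smallest p. The added one was the span against exonic circRNAs, and all 10 then had an adjusted p of 0.05, the threshold itself.

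The named genes were then looked up in the gene table. Of 549 circRNAs, 486 had their gene there and 63 did not. A total of 472 overlapped that gene, which was on the other strand in 471 cases. The exception lay on the strand of its gene PDZD2 and was named after its values were seen. The genes of all 486 matched circRNAs are called opposite genes below, including those of the 14 without overlap and PDZD2. The circRNA lay inside the gene in 426 cases (77.6%), of which 16.4% were in the first 10% of the gene from its 5′ end and 12.4% in the last 10%, with a median position 49.3% along the gene. The table gives overlapping genes 1 joint interval, which affected 2289 of 19442 genes and 62 of the matched circRNAs. For the 369 circRNAs inside a gene with an interval of its own, these values were 16%, 12.7% and 49.2%. A gene of the circRNA's own strand was listed over 49 of them, but for 48 of these only through such a joint interval. Only 3 overlapped a lncRNA of their strand in the lncRNA table.

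Antisense junctions had no partner on the facing strand. None of the 549 had a circRNA of the other strand whose ends were both within 10 nt of its own, although 99 (18%) overlapped one. Another 34 shared 1 end with a circRNA of their own strand. The 549 circRNAs carried 475 gene names, of which 424 had 1 antisense circRNA and 51 had 2 or more. For 239 of the names (50.3%) the table also held circRNAs in the sense direction. Among genes of at least 1 FPKM on average, 212 of the opposite genes (53.7%) gave sense circRNAs, against 25.7% of all 11151 such genes, a comparison that was not matched for level. On the 19 chromosomes antisense circRNAs made up 4.17% to 7.20% of the circRNAs, and 17 more lay on unplaced scaffolds.

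The mitochondrial genome stood out by its class. It gave 9 circRNAs, of which 8 were antisense, with 124 reads in all. Of these, 5 lay opposite ND5, a subunit of respiratory complex I, and the others opposite COX1, ATP6 and COX3. NADH6, on the strand of the 5 opposite ND5, was listed over the same place, so these may be sense to NADH6. The most abundant, chrM:14458-14631, had 34 reads in AA library 1 and 5 in HA library 3 and none elsewhere. The one opposite COX1 had 8 and 13 reads in AA libraries 1 and 2 and 2 in HA library 3. The mitochondrial antisense reads were 75, 19 and 0 in AA and 0, 7 and 23 in HA, so the groups overlapped.

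FOXO1, a transcription factor of the insulin pathway, faced the most antisense circRNAs. Its 7 were 129 to 573 nt long, lay scattered over the gene and held 42 reads in AA and 20 in HA libraries. Of the 7, 6 were found in a single library, and the other had 2 and 6 reads in AA libraries 1 and 2. ZFPM2, a cofactor of GATA4, faced 4 with 62 reads, all in AA libraries. GJA1, the gap junction protein connexin 43, faced 4 with 34 reads, all in AA, and its own row was absent from the gene table under that symbol, where a row named CONNEXIN covers the place. TUBA1A, an alpha tubulin, faced 4 with 20 reads, also all in AA, but its interval in the gene table is a joint one. GCLC, the catalytic subunit that starts glutathione synthesis, faced 3 with 28 reads in AA and 6 in HA. MKI67, the proliferation marker, faced 3 with 9 reads in AA and 25 in HA, of which 1 of 2133 nt had 7 reads in AA library 1 and 16 in HA library 3. Apart from 1 circRNA of FOXO1 and 2 of MKI67, none facing these 6 genes was listed in a second library.

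The antisense class held a larger share of the back-spliced reads in AA than in HA libraries. It took 3.65%, 6.17% and 2.97% of the reads in AA and 1.60%, 1.31% and 1.75% in HA. Every AA library was above every HA library, and so necessarily within each pair of libraries that carry the same date in their labels. The means were 4.26% ± 1.68 and 1.55% ± 0.224 (SD, n = 3 each), a ratio of 2.75. The 2-sided exact permutation test gave p = 0.1, the smallest that 3 against 3 allows, and 0.3 after adjustment over the 5 classes. Paired by date, an exact sign-flip permutation test gave p = 0.25, the smallest that 3 pairs allow. Scaled to mapped depth, the reads were 1051, 1985 and 1317 in AA and 733, 434 and 561 in HA libraries, which is 1.32 higher on the log2 scale (exact permutation p = 0.1). The number listed was 210, 122 and 86 in AA and 35, 62 and 95 in HA libraries, and here the groups overlapped (exact permutation p = 0.2).

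The higher share in AA was seen for short circRNAs, and was small for those found in at least 2 libraries. Members under 5000 nt held 2.76%, 5.22% and 2.41% of the reads in AA and 1.09%, 0.739% and 0.799% in HA libraries, a ratio of 3.94 without overlap. The long ones held 0.896%, 0.948% and 0.567% in AA and 0.505%, 0.570% and 0.951% in HA libraries, and these ranges overlapped (exact permutation p = 0.7). With only the 26 circRNAs found in at least 2 libraries, the class differed by 0.17 on the log2 scale in place of 1.46 for its share of reads (exact permutation p = 0.7). Of the 549, 376 (68.5%) were found only in AA libraries, 151 (27.5%) only in HA libraries and 22 in both. For exonic circRNAs the corresponding shares were 29.5% and 51.0%, and for intergenic circRNAs 52.2% and 38.8%.

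The other classes moved less. Exonic circRNAs took 36.5% of the reads in AA and 39.8% in HA libraries on average, with overlapping groups. Of the listed circRNAs, the antisense share was 7.28% ± 2.17 in AA and 2.47% ± 0.265 in HA libraries, a ratio of 2.94. The intergenic share was 1.55 times as high in AA and the intronic 1.47 times, neither with overlap, while the exonic ratio was 0.853, also without overlap. Short intronic circRNAs took 2.01 times the share of reads in AA without overlap, and short intergenic ones 1.77 times with overlap. As a share of listed circRNAs, the ratio was 1.96 for short intergenic and 1.66 for short intronic ones, neither with overlap. It was 3.65 for short antisense ones, also without overlap. The difference between classes was not tested.

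**Figure D2:**
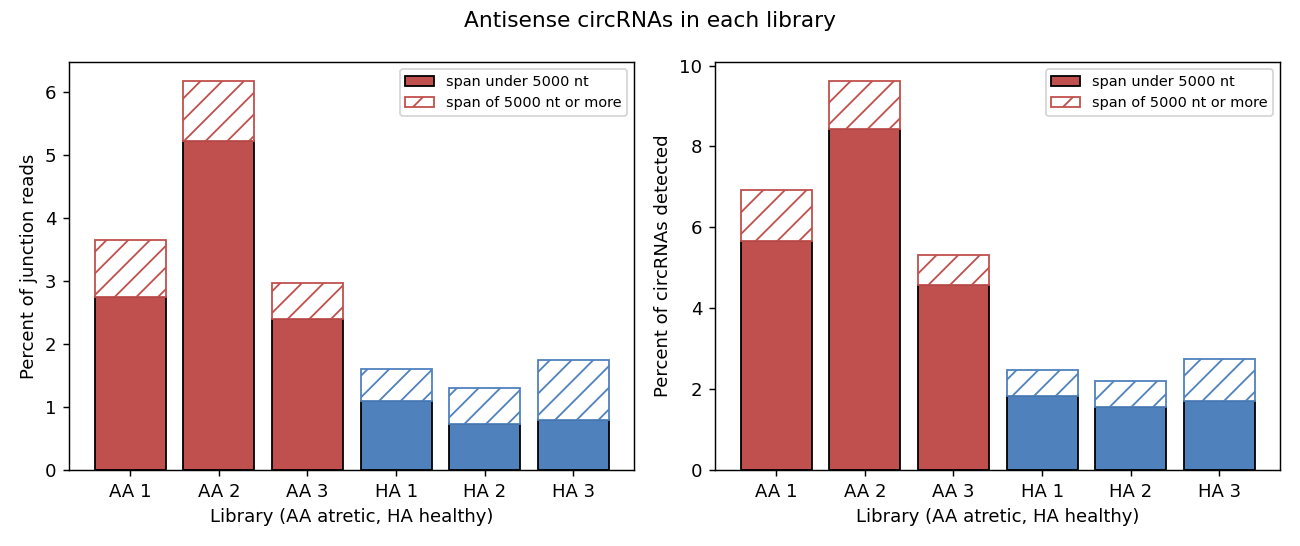
Stacked bars of the antisense share of back-spliced reads (left, percent) and of listed circRNAs (right, percent) in each of the 6 libraries, with filled parts for spans under 5000 nt and hatched parts for longer ones. The filled parts reach 2.41% to 5.22% of reads in AA and 0.739% to 1.09% in HA libraries, and the hatched parts overlap.

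**Figure D3:**
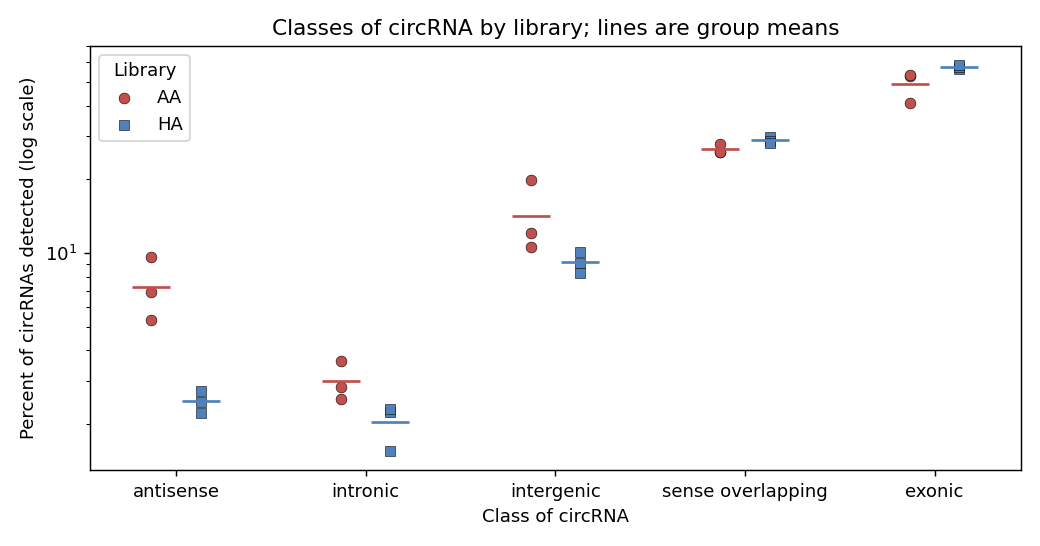
Percent of the circRNAs listed in a library that fall in each of 5 classes, on a log axis, with a point per library and a line at the mean of the 3 AA (circles) or 3 HA (squares) libraries. The antisense points lie at 5.31% to 9.61% in AA and 2.21% to 2.74% in HA libraries.

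No single antisense circRNA passed the test between groups. Of the 549, 18 had at least 2 reads in at least 3 libraries and could be tested, and edgeR's quasi-likelihood test over all 1014 such circRNAs called 0 of the 18, at a smallest adjusted p of 0.812 (0.0986% of all tested were called, that is 1). DESeq2 and a linear model on the deposited log2 values also called 0 of them, and each called 1 of all 1014. The smallest adjusted p among the 18 was 0.697 in DESeq2. In the linear model it was 0.0539, for the circRNA opposite CPEB2. With the p left unadjusted (0.05 or below, at least 2-fold), edgeR took 2 of 18 as lower in AA and 0 as higher, where 5.13% and 0.592% of all tested were taken. The linear model took the same number in each direction, where 4.83% and 1.28% of all tested were taken. With the pairs of libraries of the same date as a block, edgeR took 0 of 18 in either direction (1.08% lower and 0.394% higher over all tested). Of the 18, 8 were listed in exactly 3 libraries, and for the 2 taken as lower these were the 3 HA libraries. They met the filter only through the group where they were high and so had to differ, which leaves the count of 2 without weight. The median log2 change of the 18 was 0.67, against -0.15 over all tested, and 11 were above 0. It was 0.19 with TMM and -0.30 without AA library 3, where 7 of 16 were above 0, so no direction was read from it.

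The pair that was lower lay opposite LOC100155760 and CPEB2. They had been chosen for description with this difference known. The circRNA at chr1:224436134-224453958 on the plus strand, 17825 nt long, had 0 reads in each AA library and 22, 10 and 8 in HA. With 3 reads put in place of 0 over the AA libraries together, it was 13.2-fold lower in AA per mapped depth, or 8.12-fold without HA library 1. The spread between the HA libraries is not part of this value, so it sets no lower limit. LOC100155760 was absent from the gene table, and the place was covered by 8 genes of both strands, of which 7 were named as type I interferons, which carry antiviral signals. All were at 0 FPKM in every library. They have 1 joint interval and belong to a family of similar genes, so their values are uncertain.

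CPEB2, a cytoplasmic polyadenylation element binding protein that controls translation of stored mRNAs, faced a circRNA of 56995 nt at chr8:9814040-9871034 on the minus strand. It had 0 reads in each AA library and 6, 10 and 6 in HA. With the same 3 reads in place of 0, it was 7.27-fold lower in AA, or 6.38-fold without HA library 2, which again sets no lower limit. Fitted without the filter, over all 9362 circRNAs, edgeR gave each of the pair an adjusted p of 0.330. CPEB2 mRNA was at 8.04 ± 2.19 FPKM in AA and 8.32 ± 2.28 in HA libraries. Both circRNAs were among the 7.79% of tested circRNAs with every AA library below every HA library, while 2.76% had every AA library above.

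SOCS4, an inhibitor of cytokine and EGF receptor signalling, faced the most abundant antisense circRNA. This circRNA of 58689 nt at chr1:204885769-204944457 on the minus strand enclosed SOCS4 and MAPK1IP1L, and was on the earlier lists. Its reads numbered 33, 54 and 15 in AA and 66, 37 and 76 in HA libraries, 281 in all, with a log2 change of -0.84 and overlapping groups, and -1.44 without AA library 2. SOCS4 mRNA was at 18.9 ± 4.14 FPKM in AA and 19.4 ± 1.51 in HA libraries.

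The one opposite EXOC6B, a subunit of the exocyst that tethers secretory vesicles, was also found in all 6 libraries. It spanned 79658 nt at chr3:73456321-73535978 on the minus strand, with 7, 36 and 24 reads in AA against 13, 6 and 4 in HA libraries, a log2 change of 1.5 with overlap. Leaving out single libraries, this was between 0.96 without AA library 2 and 2.37 without HA library 1. Opposite ACOT4, a peroxisomal thioesterase, a circRNA of 36982 nt that enclosed the gene counted 27, 26 and 20 reads in AA against 0, 30 and 15 in HA libraries. In these 3 circRNAs, the ones with the most reads, the groups overlapped.

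Opposite GPATCH2, a circRNA of 6824 nt inside the gene counted 3, 9 and 24 reads in AA against 0, 12 and 13 in HA libraries. The one assigned to RSF1, a chromatin remodelling factor, counted 16, 0 and 7 reads in AA against 6, 6 and 21 in HA libraries, but it lay 65538 nt from RSF1 in the gene table and overlapped no gene there. The signs of both changes turned when AA library 3 was left out for GPATCH2 (-0.31) or AA library 2 for RSF1 (0.0015).

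DLGAP4, a postsynaptic scaffold protein, was listed on both strands of the table. The circRNA of 75931 nt opposite 1 of its rows counted 7, 12 and 39 reads in AA against 0, 0 and 25 in HA libraries. The second row of that name lay 8279 nt away on the circRNA's own strand, at 25.7 FPKM in AA and 13.5 in HA libraries on average, while the row it faced was at 1.48 FPKM in AA and 1.41 in HA libraries. A second row of the same name on the circRNA's strand and chromosome was found for 5 of the 549, with VCPIP1, ATM and RUNX2 as the other names.

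Members found in 1 to 4 libraries completed the 12 with the most reads. The circRNA assigned to ENSSSCG00000014605, with 14 reads in AA library 2 and 24 and 5 in HA libraries 1 and 3, covered 4 genes at 0 FPKM in every library. Opposite EP300, a histone acetyltransferase, a circRNA of 163 nt at the 3′ end of the gene had 41 reads in HA library 1 and none elsewhere. Opposite SLC5A1, the intestinal sodium/glucose transporter, 1 of 17256 nt had 34 reads in AA library 1 only, at a mean of 0.283 FPKM of the gene. NPY2R, a neuropeptide Y receptor, was enclosed by 3 circRNAs of 87818 to 88614 nt that shared 1 end, the main one with 7, 0 and 16 reads in AA against 0, 2 and 10 in HA libraries.

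**Figure D4:**
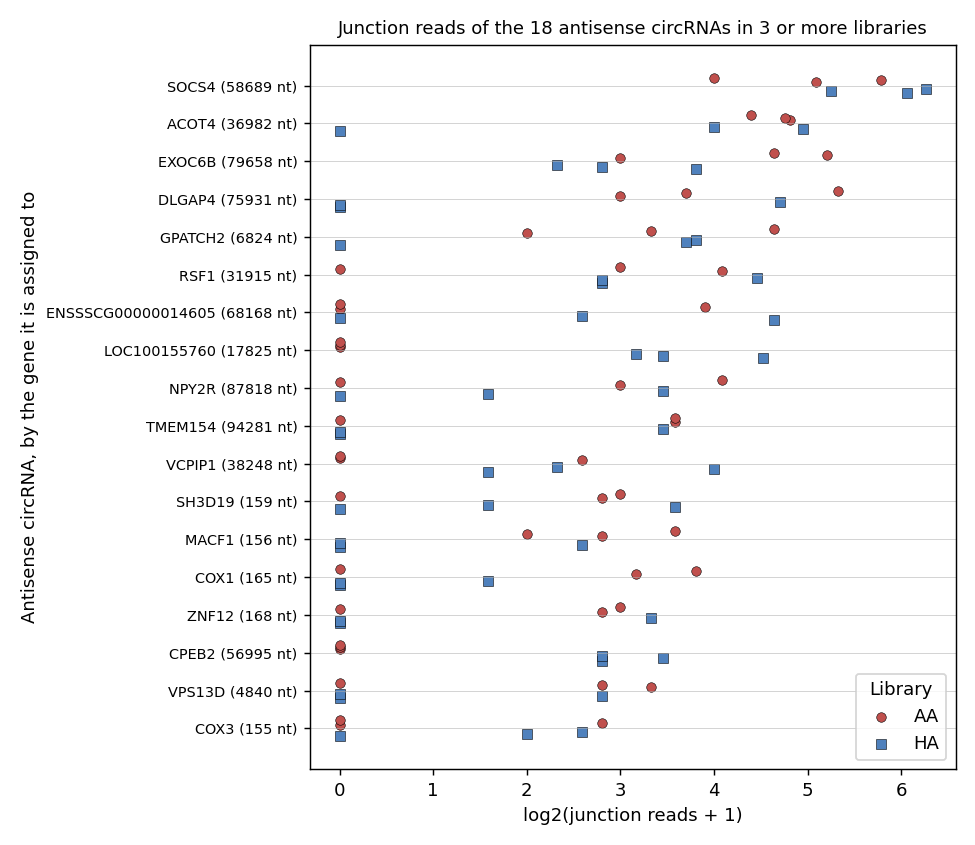
Back-spliced reads of the 18 antisense circRNAs found in at least 3 libraries, as log2(reads + 1), with a circle for each AA and a square for each HA library, labelled by the assigned gene and the length in nt. The groups overlap in every row except LOC100155760 and CPEB2, where the 3 AA libraries lie at 0.

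The opposite genes, taken by the assigned name as above, were well expressed. The median of the mean FPKM was 26.1 for the 420 genes found in the table, 23.0 for the 2096 hosts of exonic circRNAs and 2.58 for all genes. Of the opposite genes 94.1% were at 1 FPKM or more, against 57.4% of all. Per library the median log2(FPKM + 1) of opposite genes was higher than that of exonic hosts by 0.15 ± 0.09 (SD, n = 6 libraries), in 6 of 6 (exact sign-flip permutation p = 0.03125). Without the 165 genes in both sets the difference was -0.27, in the other direction (exact sign-flip permutation p = 0.03125).

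Among the opposite genes matched by name, the highest were the mitochondrial COX3 with a mean of 9272 FPKM, ATP6 with 2692 and ND5 with 1950. INHBA with 1734 and CALR, a chaperone of the endoplasmic reticulum, with 1171 came next. COX1 was not matched by name and so is not ranked. A row named CO1 faces its circRNA, at 7261 FPKM in AA and 8291 in HA libraries on average, above ATP6. At the other end 6 genes were listed at 0 in every library, including MAL, AADAT, GLRA2 and RNF222. When the gene was compared in the library where its circRNA was found with the other libraries, it was above them for 48.1% to 56.2% of such genes in 5 libraries, against 46.3% to 54.5% of all genes tested there. In AA library 3 it was above for 69.2% of 65, against 51.9% of all genes.

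Of the opposite genes 395 could be tested with limma on log2(FPKM + 1), where a fold change understates the change of low genes. At an adjusted p of at most 0.05 none was called (0 of 395, 0.0% of 11001 genes in either direction, smallest adjusted p 0.0568). With p left unadjusted, 51 were higher and 33 lower in AA, or 12.9% and 8.35%, where 9.48% and 6.14% of all genes were. Their median log2 change was 0.05, against 0.01 over all genes.

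RUNX2, a runt transcription factor, had the smallest p. It was at 20.7, 62.6 and 15.4 FPKM in AA and 1.31, 1.47 and 0.739 in HA libraries, a log2 change of 3.72 ± 0.48 (SE; limma adjusted p = 0.0568). Its antisense circRNA of 225 nt had 8 reads in AA library 2, where RUNX2 was highest. The leukocyte markers were also highest in that library, and a link was not tested. SEMA5A, an axon guidance cue, was at 53.8, 84.3 and 32.5 FPKM in AA and 12, 8.01 and 12 in HA libraries. LDLRAD3, a membrane receptor, was at 51.7, 46.7 and 41.9 FPKM in AA and 23.6, 18.8 and 19.0 in HA libraries. MSMB, a secreted protein first known from prostate, was at 732, 2574 and 1049 FPKM in AA and 166, 261 and 117 in HA libraries. FSHR, the FSH receptor of granulosa cells, was at 92.0, 88.3 and 90 FPKM in AA and 51.0, 33.3 and 28.4 in HA libraries, with a log2 change of 1.28 ± 0.22 (limma adjusted p = 0.0594). These 5 were named for the smallest p, so their groups did not overlap, as for 11.9% of all genes tested with AA above HA and 9.1% with AA below. Their antisense circRNAs had 4 to 16 reads in 1 AA library each.

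In the other direction KIF21A, a kinesin, was at 33.6, 22.3 and 48.7 FPKM in AA and 77.1, 102 and 91.6 in HA libraries, a log2 change of -1.41 ± 0.27 (limma adjusted p = 0.0707). PDZRN4, MUM1L1 and MAP1A, a microtubule-associated protein, had log2 changes of -0.98, -0.69 and -1.04, at limma adjusted p of 0.0733 to 0.121. GCLC was at 562, 360 and 647 FPKM in AA and 1236, 1124 and 837 in HA libraries, a log2 change of -1.05 ± 0.27 (limma adjusted p = 0.129). KIF21A had its antisense circRNA, of 14 reads, in HA library 1, whereas that of PDZRN4, of 20 reads, was in AA library 2. With the libraries of the same date paired as a replicate block, 2 of the 395 opposite genes were called higher, MSMB and RUNX2, both at an adjusted p of 0.0364 (13 of 11001 genes, 0.118%). Without AA library 3, 8 of 393 were called higher (75 of all genes, 0.695%) and 2 lower (22 of all genes, 0.204%), the latter KIF21A and NR5A2. Without AA library 2, RUNX2 was the opposite gene called, among 6 of 10726 genes (0.0559%).

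**Figure D5:**
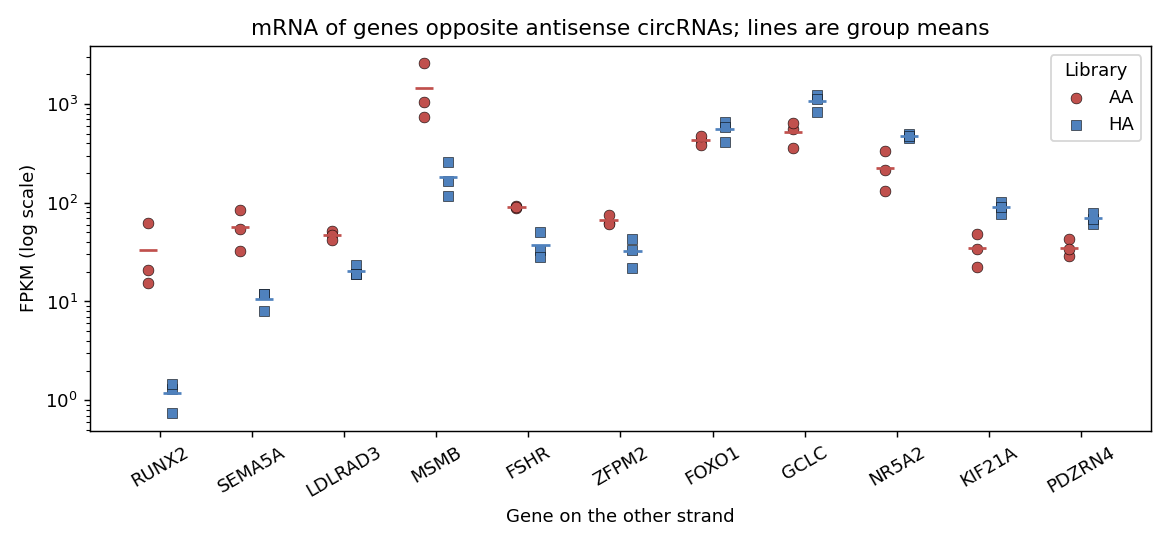
FPKM on a log axis of 11 genes that face antisense circRNAs, with a circle for each AA and a square for each HA library and a line at the group mean. RUNX2, at 15.4 to 62.6 FPKM in AA and 0.739 to 1.47 in HA libraries, shows the widest gap, and none of the 11 passed the adjusted threshold.

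Among the listed granulosa genes 3 faced an antisense circRNA. INHBA, the inhibin and activin beta A subunit, was at 1250 ± 398 FPKM in AA and 2218 ± 843 in HA libraries, and its antisense circRNA of 10959 nt covered nearly the whole gene with 8 reads in HA library 3. NR5A2, the nuclear receptor LRH-1, was at 227 ± 104 FPKM in AA and 474 ± 19.1 in HA libraries, and its antisense circRNA of 343 nt had 18 reads in AA library 3. FSHR is described above. Of the 17 factors of circRNA formation found in the table, only HNRNPM faced one, with 2 reads, and it was at 101 ± 8.41 FPKM in AA and 100.5 ± 12.3 in HA libraries. Of the 15 tested in that list and the 15 tested in the list of double-stranded RNA binding and sensing, 0 passed limma at an adjusted p of 0.05 and 0 at an unadjusted p of 0.05, with median log2 changes of 0.06 and 0.27.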

How the data were processed

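Total RNA of 3 HA and 3 AA pools was depleted of rRNA and made into stranded libraries. The authors trimmed reads with cutadapt, aligned them with bowtie2 to Sscrofa10.2 and called circRNAs with find_circ. Back-spliced reads were deposited by the authors as a raw count per circRNA and library. The log2 values deposited beside them are log2 of that count shifted by a constant of the library that reflects its mapped reads. The deposited gene and lncRNA tables give the authors' FPKM from TopHat and Cufflinks. Whether gene counting used strand is not given in the sources used here, so reads of a gene and of its antisense partner may not be told apart in FPKM. A further 12 columns of per-sample values in them were not used. Columns of the authors' own comparisons, fold changes and p-values, were not used either.

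The log2 constants gave relative mapped depths of 0.696 to 1.00, used as library sizes. CircRNAs that had 2 or more reads in 3 or more libraries were tested on their counts with edgeR 4.0.16 (R 4.3.3). Genes with FPKM of at least 1 in 3 libraries were tested with limma 3.58.1 on log2(FPKM + 1). Each fit covered all circRNAs or genes that met its filter, with Benjamini-Hochberg adjustment. Both were first run on simulated data. The simulated counts were given less spread than these data, where edgeR's common dispersion was 2.03, so that run does not measure power here. To be called, a circRNA had to reach an adjusted p of 0.05 with a 2-fold change, and a gene the adjusted p alone. Class values were compared by exact permutation tests. Alternatives were DESeq2 1.42.0, TMM, other filters and pseudocounts, quantile normalization, a replicate block and leaving out each library.

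Libraries of the same number in the 2 groups carry the same date in their labels, which was taken as a pairing. What the date marks is not given in the labels. The methods describe 3 slaughter days without tying them to libraries. The main fits had no block, since the study's methods name none, and the fit with the pairs as a block was the alternative. Paired libraries did not deviate together (correlations from -0.06 to 0.00 over circRNAs and from -0.40 to 0.00 over genes).

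Named circRNAs were the 12 with most reads, those in at least 5 libraries, those past an unadjusted p of 0.05 at a fold change of 2, the 2 opposite LOC100155760 and CPEB2, and the 3 longest and 3 shortest. Named genes were the 8 with most antisense circRNAs, the 5 highest and 5 lowest, the 5 with the smallest p in each direction and members of the lists. Members and lists were chosen with earlier results of these data known. Sequences are not printed, since no genome of this build was used here.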

Additional observations from a re-analysis of the deposited data

How the results depend on the processing

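The higher share and depth-scaled reads of antisense circRNAs in AA kept their direction in every alternative run, with log2 differences of 0.14 to 1.98. Every AA library was above every HA library in both measures, so leaving out libraries or pairing them could not turn the direction. The number listed turned to -0.033 with only circRNAs in at least 2 libraries. With that limit the median length exceeded that of intergenic circRNAs by 16520 nt and of intronic ones by 2700 nt, and median reads exceeded exonic ones by 0.167. The share also found in another library can give no value there. Antisense minus exonic length ranged from -99.5 nt (without HA library 3) to 35.5 nt leaving out single libraries and was -7385 nt by genomic span, under which 10 class comparisons passed. The FPKM difference from exonic hosts was -0.27 without shared genes and ranged from 0.12 to 0.17 leaving out single libraries, at p = 0.0625, the smallest that 5 allow in an exact test. Opposite genes called were 84 by unadjusted p (1718 of all genes) and 0 to 10 leaving out single libraries (0 to 97 of all genes). With the replicate block they were 2 (13 of all genes). The block left antisense circRNA calls at 0, and the 1 circRNA called over all 1014 without it was no longer called. By unadjusted p, edgeR and the linear model each took 2 circRNAs, and edgeR with the block 0. Log2 changes that turned when single libraries were left out ranged from -0.31 to 1.26 for GPATCH2 (lowest without AA library 3), from -1.45 to 0.18 for RSF1 (0.0015 without AA library 2 and 0.18 without HA library 3), from -0.28 to 2.95 for NPY2R (lowest without AA library 3), from -0.74 to 0.37 for COX3 (0.37 and 0.35 without AA libraries 1 and 3) and from -0.54 to 2.02 for SH3D19, which was -0.18 with TMM. The causes were not tested. Spans and the 3 libraries with fewer circRNAs were added as alternatives after seeing the data, and without those libraries the read share differed by 1.26 on the log2 scale. Most members have at most 10 reads, in 1 library, which limits any comparison of single circRNAs.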
